A study of Mus musculus with 2 samples.

Results

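The erythropoietin receptor, Kit, and the JAK-STAT genes that act with them were examined for sites of Gata1 binding in mouse cells. The 10 genes were listed by name: the receptors Epor and Kit, the kinase Jak2, the transcription factors Stat5a and Stat5b, the inhibitors Socs3, Cish and Sh2b3, and the target or survival genes Pim1 and Bcl2l1. All 10 were found among 21779 nuclear protein-coding genes of the RefSeq annotation. A peak was counted for a gene when its midpoint lay in the gene body or within 100 kb of either end, and 19 of 4135 peaks met this rule. Gata1 occupancy had been mapped by chromatin immunoprecipitation and sequencing (ChIP-seq) in 1 ChIP library, made with a rabbit anti-Gata1 antibody. The series also lists 1 input chromatin library, whose antibody field names a rabbit IgG and which was not analysed here. Both came from mouse embryonic stem cells differentiated for 5 days as embryoid bodies, then sorted for a Runx1-ires-GFP reporter and a Gata1::mCherry reporter and described as primitive erythroid. These are cultured cells pooled from several sorts, and the labels name no mutant and no drug treatment. Expression was not measured, so the label of the cells could not be set against marker genes.

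Erythropoietin binds its receptor on red cell precursors and activates the attached kinase Jak2, which phosphorylates Stat5. Stat5 then enters the nucleus and switches on survival genes, along with inhibitors such as Cish and Socs3 that damp the same receptor. Kit, the receptor for stem cell factor, drives the growth of early precursors and is lost as red cells mature, and Gata1 is known to repress it in maturing erythroblasts. Epor is a long-known Gata1 target in mouse.

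Gata1 peaks lay in or beside both receptors and inside Bcl2l1, upstream of Pim1 at a distance, and not in the bodies of the other members. A peak was in the gene for 3 of 10 members (Epor, Kit and Bcl2l1), against 9.34% of all protein-coding genes. Kit and Bcl2l1 are long genes, and among protein-coding genes of 50 kb or more the share was 20.6%. It was in the gene or within 10 kb for 4 of 10, with Stat5a added, against 16.5%, within 50 kb for 7 of 10, against 32%, and within 100 kb for 9 of 10, against 43.9%. With 200 kb all 10 had one, against 58.2%. Sh2b3 was the member with no peak within 100 kb. The list holds positions only, at 1 width of 400 bp, with no score or read count, so each site is called or not called, its strength and the read depth are unknown, and binding below the caller's unstated threshold cannot be seen. With 1 ChIP library there was no replicate and no test. All shares are counts over genes or peaks.

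**Figure D1:**
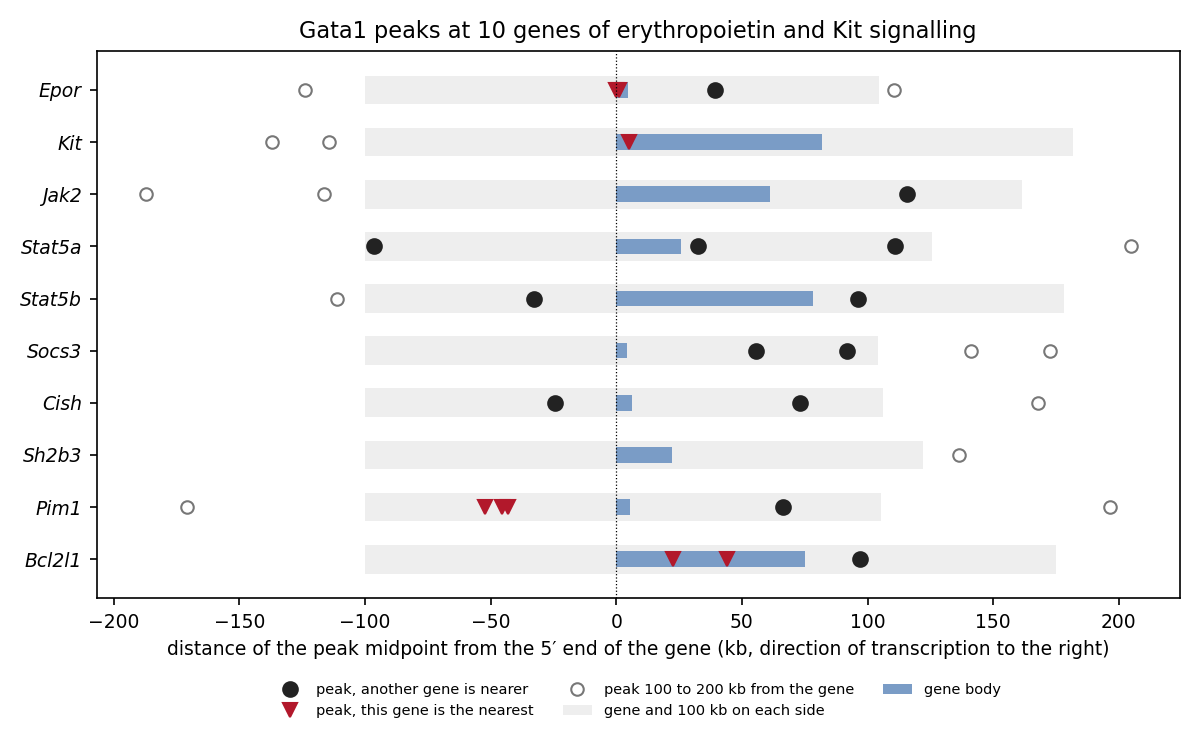
Gata1 peaks at the 10 genes. The x axis is the distance in kb of the peak midpoint from the 5′ end of the gene, with transcription to the right, each row is a gene, blue bars are gene bodies and grey bars add 100 kb on each side. Red triangles (8 distinct peaks) have that gene as their nearest protein-coding gene, black circles have another gene nearer, and open circles lie 100 to 200 kb away. The Stat5a and Stat5b rows share peaks.

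Promoter sequences are shown first because peaks cover part of those of Epor, Cd274 and Hcrt. Those of Bcl2l1, Cish and Socs3 are shown because they hold GATA or STAT letters without a peak. Each run is 280 bases of RefSeq sequence (GRCm38.p6, also called mm10), 5′ to 3′ on the strand of the gene, from 250 bases before the listed start to 30 bases from it. Capitals mark AGATAA or TGATAA, the core letters that Gata1 recognises, and TTCNNNGAA, the letters that Stat5 recognises, on either strand. The 2 motifs share no base in the runs shown. Epor lies at chr9:21963547-21963826 on the minus strand. Cd274, whose promoter peak is the peak counted for Jak2, lies at chr19:29367188-29367467 on the plus strand. Hcrt, whose promoter overlaps a peak counted for Stat5a and Stat5b, lies at chr11:100762902-100763181 on the minus strand. Bcl2l1 is shown for 1 of its 3 listed starts, at chr2:152828460-152828739 on the minus strand. Cish lies at chr9:107296409-107296688 on the plus strand and Socs3 at chr11:117969337-117969616 on the minus strand. The listed starts of the Socs3 and Bcl2l1 runs, 117969366 and 152828489, lie inside the genes, whose 5′ ends are at 117970336 and 152833803.
Epor: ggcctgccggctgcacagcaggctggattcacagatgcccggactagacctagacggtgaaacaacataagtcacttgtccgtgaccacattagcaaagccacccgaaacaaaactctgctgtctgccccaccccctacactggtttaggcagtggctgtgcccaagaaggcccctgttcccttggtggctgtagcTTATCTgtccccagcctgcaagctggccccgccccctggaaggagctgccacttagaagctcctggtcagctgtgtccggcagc
Cd274: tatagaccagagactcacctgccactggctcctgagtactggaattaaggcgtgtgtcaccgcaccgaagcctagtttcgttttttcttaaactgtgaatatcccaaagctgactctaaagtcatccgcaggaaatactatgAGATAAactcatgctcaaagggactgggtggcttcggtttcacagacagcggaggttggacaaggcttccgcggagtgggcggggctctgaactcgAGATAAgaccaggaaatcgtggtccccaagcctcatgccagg
Hcrt: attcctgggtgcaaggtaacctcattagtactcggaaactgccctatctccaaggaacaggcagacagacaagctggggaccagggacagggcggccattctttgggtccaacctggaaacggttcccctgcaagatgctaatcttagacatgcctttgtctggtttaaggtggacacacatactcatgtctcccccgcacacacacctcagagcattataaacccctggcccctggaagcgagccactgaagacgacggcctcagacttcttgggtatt
Bcl2l1: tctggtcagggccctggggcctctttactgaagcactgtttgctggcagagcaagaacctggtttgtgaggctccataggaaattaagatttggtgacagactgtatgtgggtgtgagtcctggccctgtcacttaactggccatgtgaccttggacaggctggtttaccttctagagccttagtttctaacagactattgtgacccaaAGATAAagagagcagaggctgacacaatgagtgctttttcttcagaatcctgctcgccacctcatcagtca
Cish: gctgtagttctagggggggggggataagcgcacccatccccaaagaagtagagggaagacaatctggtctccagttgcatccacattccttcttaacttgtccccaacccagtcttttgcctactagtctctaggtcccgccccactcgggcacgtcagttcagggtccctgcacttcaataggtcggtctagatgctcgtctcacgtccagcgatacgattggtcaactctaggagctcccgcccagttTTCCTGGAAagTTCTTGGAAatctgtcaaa
Socs3: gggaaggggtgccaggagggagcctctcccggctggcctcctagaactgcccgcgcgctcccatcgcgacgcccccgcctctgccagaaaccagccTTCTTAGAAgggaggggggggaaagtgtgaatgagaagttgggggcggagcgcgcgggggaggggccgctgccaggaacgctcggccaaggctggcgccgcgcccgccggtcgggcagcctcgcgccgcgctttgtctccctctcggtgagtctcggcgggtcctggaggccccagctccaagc
A peak covered 274 of the 280 bases of the Epor run, 259 of those of Cd274 and 149 of those of Hcrt, and no base of the Bcl2l1, Cish or Socs3 runs. Most promoters were of the latter kind, as 20821 of 21263 promoters of protein-coding genes had no base in a peak.

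Epor had 3 peaks within 100 kb, and 2 of them flanked its start. The gene spans 4.68 kb, from 21958897 to 21963576 on chromosome 9, on the minus strand. The first of the pair, chr9:21963421-21963820, had its midpoint 44 bp upstream of the listed start. The second, chr9:21962412-21962811, lay inside the gene, 965 bp downstream of the start, and the midpoints were 1009 bp apart. The Epor promoter held 1 GATA motif, read as TTATCT on the gene's strand, whose bases lie 54 to 49 before the start and inside the promoter peak. At least 2 peaks within 10 kb, as at Epor, were found for 3.06% of protein-coding genes, and a peak in the body for 2.84% of those under 10 kb long. The remaining Epor peak, chr9:21924068-21924467, was 34.6 kb past the 3′ end, inside Tmem205, a gene for a transmembrane protein. The Epor window is crowded, with 10 other protein-coding genes, but Epor was the nearest to both peaks at its start.

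Kit had a single peak, chr5:75579901-75580300, inside the gene and 5.11 kb downstream of its nearer listed start. The gene spans 81.7 kb on chromosome 5 from 75574987 to 75656722, on the plus strand. No other protein-coding gene lay within 100 kb of it. Neither of its 2 listed promoters, which start 4 bases apart, had a base in a peak, and neither held a GATA motif. Just beyond the window were 2 more peaks for which Kit was still the nearest protein-coding gene. They lay at chr5:75460514-75460913, 114 kb upstream, and at chr5:75437740-75438139, 137 kb upstream. Kit stands between 2 other receptor genes. Kdr, the receptor for the endothelial growth factor VEGF, carried a peak at chr5:75962236-75962635. Pdgfra, a platelet-derived growth factor receptor gene, had its closest peak 239.7 kb away.

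Jak2, the kinase bound to the erythropoietin receptor, had no peak in its 61.3 kb body on chromosome 19. Its 1 peak within 100 kb, chr19:29367209-29367608, was 54.3 kb past its 3′ end. That peak lay 30 bp from the listed start of Cd274, which encodes the immune ligand PD-L1. The Cd274 run printed above holds AGATAA at 2 places, from 108 to 103 and from 12 to 7 bases before the start. The Jak2 promoter held no GATA motif and no base in a peak. Among protein-coding genes of 50 kb or more, 20.6% had a peak in the body and 45.5% had one in the body or within 100 kb.

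Stat5a and Stat5b, which encode the STATs activated by Jak2, are neighbours on chromosome 11, read in opposite directions, and shared 2 of the 3 peaks in their windows. Neither gene had a peak in its body. The closest, chr11:100891549-100891948, was 6.58 kb past the 3′ end of Stat5a and 32.7 kb upstream of Stat5b, and lay inside Stat3, the next STAT gene. Another, chr11:100762651-100763050, was 17.9 kb past the 3′ end of Stat5b and 96.5 kb upstream of Stat5a, the peak closest to the limit of the window from inside. It lay in Hcrt, the gene for the neuropeptide hypocretin, 81 bp from that gene's listed start. The Hcrt run printed above holds neither motif. That run does hold CTATCT, which is AGATAG on the other strand, in a part that the peak does not cover. The last, chr11:100969887-100970286 in Cavin1, a caveolae gene, was 84.9 kb from Stat5a, and at 111 kb from Stat5b it fell outside that gene's window. The 4 listed promoters of the pair had no base in a peak, and none held a GATA or STAT motif. All 4 listed starts lie inside the genes, and the sequence at the 5′ ends of the genes was not searched. Stat5a and Stat5b were not the nearest protein-coding gene to any peak.

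Peaks at the inhibitors were all distant, the closest at 24.2 kb. Socs3, which blocks Jak kinases at the receptor, had 2 peaks, at chr11:117914480-117914879 and chr11:117878364-117878763, 51.4 and 87.5 kb past its 3′ end. Both were nearer to Tha1, a threonine aldolase gene, and the farther one lay in the noncoding gene Gm11725. Cish, which encodes a Stat5-induced inhibitor of cytokine receptors, had 1 peak 24.2 kb upstream at chr9:107272227-107272626, inside Mapkapk3, a stress kinase gene, and 1 at chr9:107369725-107370124, 67.1 kb downstream. The second lay outside all listed genes and was nearest to 6430571L13Rik. Sh2b3, also called Lnk, encodes an adaptor that restrains Jak2 and Kit signalling. Its nearest peak, chr5:121701151-121701550, was 114 kb past its 3′ end and nearest to Atxn2. A peak within 100 kb was found for 48.5% of protein-coding genes 10 to 50 kb long, the class of Sh2b3, and for 37.6% of those under 10 kb, the class of Socs3, Cish, Pim1 and Epor. The member peak closest to the limit from outside was chr9:21852710-21853109, 106 kb past the 3′ end of Epor. None of the 3 inhibitors was the nearest protein-coding gene to a peak within 100 kb.

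The promoters of Cish and Socs3 held STAT letters and no peak. In Cish, TTCCTGGAA covered the first 9 listed transcribed bases and TTCTTGGAA covered bases 12 to 20. In Socs3, TTCTTAGAA lay 154 to 146 bases before the listed start, which puts it inside the annotated gene. These 2 were the only ones of the 16 listed member promoters with TTCNNNGAA, against 1548 of 21263 promoters of protein-coding genes (7.28%). The STAT letters are a match of sequence, and Stat5 binding was not measured.

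Pim1 had the most peaks of the members, and all of them were far from the gene. Pim1, which encodes a survival kinase induced by Stat5, spans 5.33 kb on chromosome 17 and had 4 peaks within 100 kb but none within 10 kb. A group of 3 lay upstream, at chr17:29447346-29447745, chr17:29445061-29445460 and chr17:29438428-29438827, which are 43.2, 45.5 and 52.2 kb from the gene. Neighbouring midpoints in that group were 2.29 and 6.63 kb apart. All 3 lay inside the long noncoding RNA gene Gm36199, the first also in Gm26885, and Pim1 was their nearest protein-coding gene. Their nearest listed start was that of another gene, Gm36486, at 9.97, 7.68 and 1.05 kb in the same order. The fourth, chr17:29556783-29557182, was 60.9 kb past the 3′ end inside Tbc1d22b. At least 4 peaks within 100 kb were found for 3.67% of protein-coding genes. Both listed Pim1 promoters had no base in a peak and no GATA or STAT motif.

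Bcl2l1, which encodes the survival protein Bcl-xL, had 2 peaks inside the gene and 1 beyond it. The gene spans 75.1 kb on chromosome 2, from 152758732 to 152833803, on the minus strand. Its peaks at chr2:152811210-152811609 and chr2:152789513-152789912 were 17.1 and 38.8 kb downstream of the nearest of its 3 listed starts, and 21.7 kb apart. The last, chr2:152736760-152737159, lay 21.8 kb past the 3′ end of Bcl2l1, inside Id1, a gene for an inhibitor of helix-loop-helix factors. No listed Bcl2l1 promoter had a base in a peak, although 1 held AGATAA 41 to 36 bases before its start, in the run printed above.

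**Figure D2:**
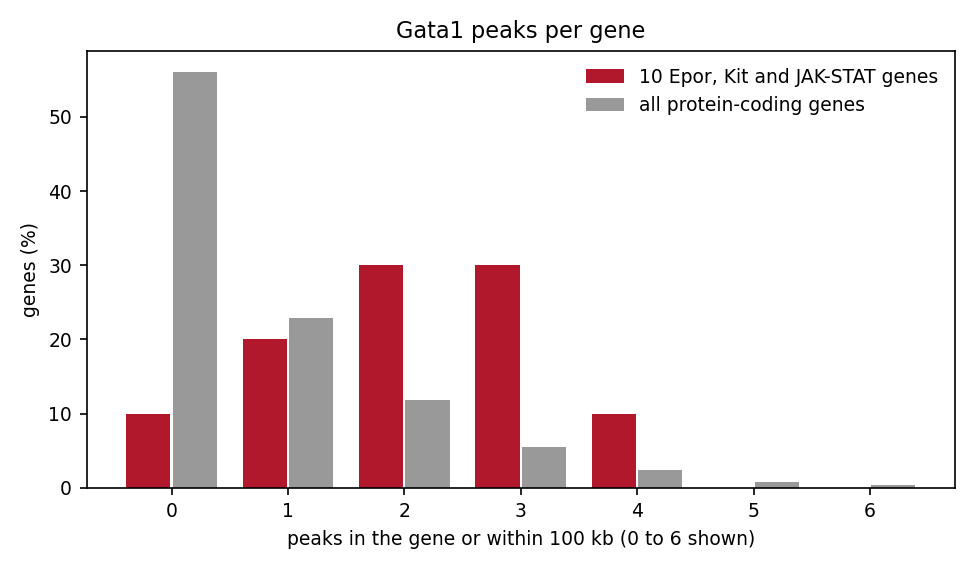
Number of Gata1 peaks per gene. The x axis is the number of peaks in the gene or within 100 kb (0 to 6 shown) and the y axis the percent of genes. Red bars are the 10 members, of which 1 had no peak, and grey bars are all protein-coding genes, of which 56.1% had none.

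Peaks were more numerous around the members than around protein-coding genes in general. The members had a median of 2 peaks within 100 kb (range 0 to 4), and all protein-coding genes had a median of 0. At least 2 peaks were found for 7 of 10 members, against 21% of protein-coding genes, and at least 3 for 4 of 10, against 9.18%. Merged where they overlap, the member windows covered 2.17 Mb and held 8.78 peaks per Mb (95% exact Poisson interval 5.28 to 13.7). The merged windows of all protein-coding genes held 2.07 peaks per Mb (2.01 to 2.14). Member and background windows were not matched for gene density, and single member windows held from 0 (Kit) to 11 (Stat5b) other protein-coding genes. The intervals cover counting error only and treat peaks as independent. The genes were chosen with earlier results of these data known, so these contrasts are descriptions.

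**Figure D3:**
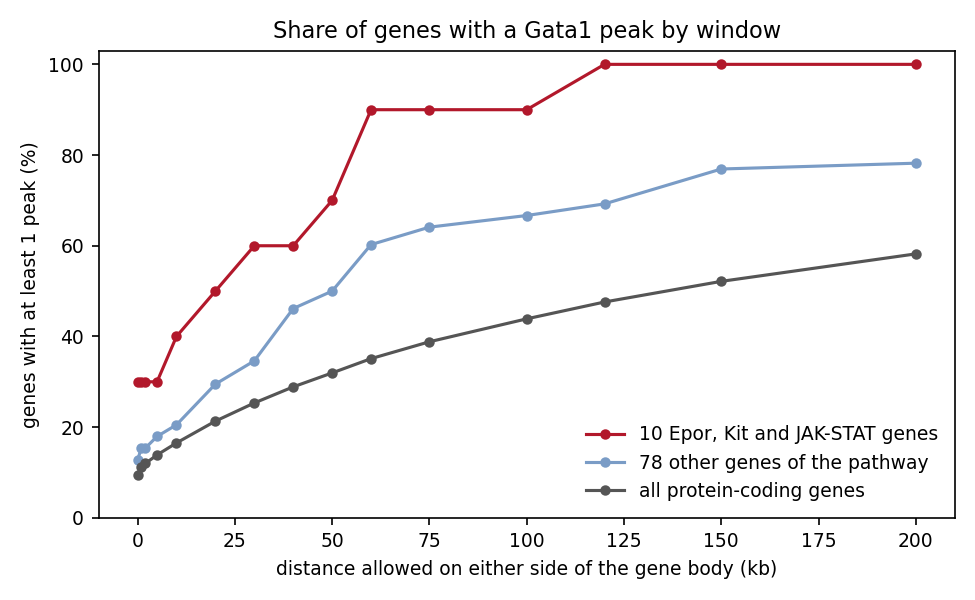
Share of genes with at least 1 Gata1 peak as the window grows. The x axis is the distance allowed on either side of the gene body in kb and the y axis the percent of genes. The members stand at 30% with gene bodies alone, 90% from 60 kb and 100% from 120 kb, and the other genes of the pathway lie between them and all protein-coding genes.

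Many of the 19 peaks lay at genes other than the members. Of the 19, 4 (21.1%, 95% exact binomial interval 6.05 to 45.6%) were in a member and 8 (42.1%, 20.3 to 66.5%) had a member as the nearest protein-coding gene within 100 kb. By that rule 4 of 10 members had a peak (Epor, Kit, Pim1 and Bcl2l1), against 14.1% of all protein-coding genes. Another 8 lay inside a protein-coding gene that is no member. A midpoint within 1 kb of any listed start was found for 5 of 19 (26.3%, 9.15 to 51.2%), among them both Epor peaks and those at Cd274, Hcrt and Cavin1. Over 3994 peaks on the chromosomes of the start table the share was 20.5% (19.3 to 21.8%), which lies inside the interval of the 19. The start table covers 17492 of 21779 protein-coding genes, so both shares can be too low. It lacks Id1, and the peak inside that 1.16 kb gene is not among the 5. A second peak within 10 kb was present for 5 of 19, in the Epor pair and the Pim1 group, against 16.7% of the 3994.

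GATA letters were more common in promoters that lay under a peak. Of 330 promoters with at least 140 of their 280 bases in a peak, 122 (37.0%, 95% exact binomial interval 31.7 to 42.4%) held AGATAA or TGATAA. Of 20821 with no base in a peak, 3152 (15.1%, 14.7 to 15.6%) did, and the share over all 21263 was 15.4%. Among the 16 member promoters 2 held the motif, 1 under a peak (Epor) and 1 not (Bcl2l1). For TTCNNNGAA the shares were 6.06% (3.74 to 9.21%) under a peak and 7.31% (6.96 to 7.67%) with no base in one. Promoters of 1 gene can overlap, so these are not independent.

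Of 78 other genes of the pathway, 16 (20.5%) had a peak in the gene or within 10 kb, close to the 16.5% of all protein-coding genes, and 52 (66.7%) had one within 100 kb, against 43.9%. By the role each gene was listed under, the 10 kb counts were 0 of 5 ligands, 2 of 10 receptors and 3 of 10 adaptors. The class of kinases and PI3K or MAPK members had 3 of 15, and the other STATs 1 of 5. Of the 18 genes listed as inhibitors 3 had such a peak, and of the 15 listed as target or survival genes 4 did. The ligand genes themselves had no close peak, and 2 of the 5 had one within 100 kb. Epo, encoding erythropoietin, had its nearest at 16.7 kb, and Kitl, encoding the ligand of Kit, at 1109.5 kb.

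Signal transducers with a peak included the adaptor genes Gab1 and Gab2, each with 1 inside the gene. Pik3r1, which encodes the regulatory subunit of PI3K, had 2, of which the peak at chr13:101692465-101692864 lay 34 bp upstream of an internal start. Jak1 had 1 in the gene, and Pdpk1 had 1 at 7.58 kb that was nearer to Amdhd2. Of the inhibitors, Inpp5d, which encodes the phosphatase SHIP1, had 2 inside the gene. Ptpn6, the SHP-1 phosphatase gene that turns off the erythropoietin receptor, had 1 at 2.08 kb upstream, nearer to Grcc10.

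Among the targets, Bad, which encodes a death-promoting partner of Bcl-xL, had 3 peaks within 10 kb, at 0.123, 0.951 and 1.61 kb past the gene, the last 2 nearer to Plcb3. Trib3, a pseudokinase gene, had 1 peak 8 bp upstream of its start and 1 at 3.25 kb. Gfi1b, which encodes an erythroid repressor, had 2 at 4.75 and 7.11 kb past the gene. Id1 and Kdr, with 1 each as given above, and Spred2, Stat3, Tfr2 and Vav1, named here after their values were seen, made up the rest of the 16. The Id1 peak is the one counted for Bcl2l1, and the Stat3 peak is one counted for Stat5a and Stat5b. Within 100 kb, 10 of the 15 target or survival genes had a peak, against 43.9% of all protein-coding genes. Among them were Pim2 with 5, all nearer to other protein-coding genes, and Myc with 1. Bcl2, Bcl2l11, Erfe, Mcl1 and Pim3 had none.

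**Figure D4:**
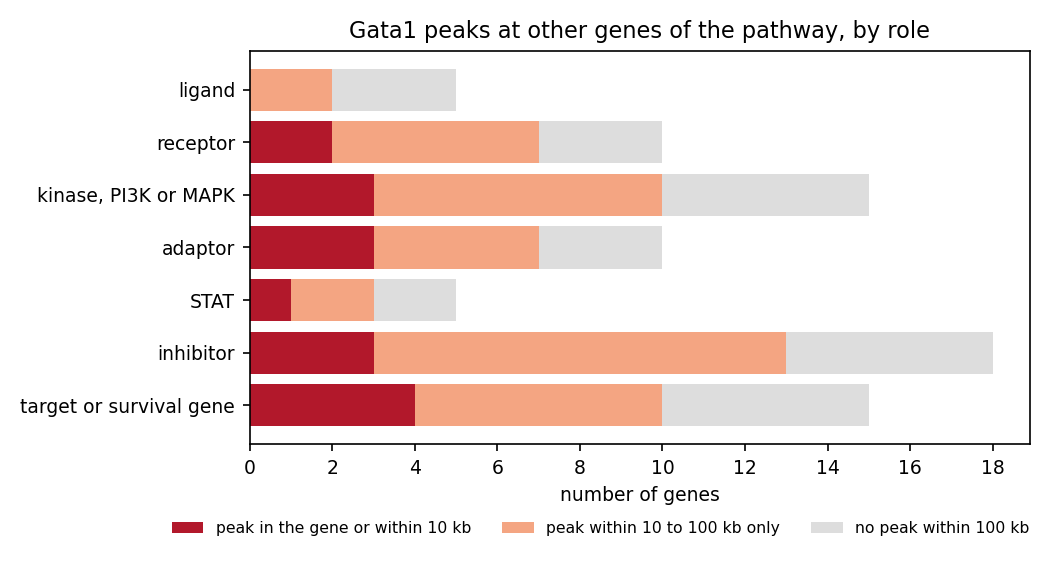
Gata1 peaks at 78 other genes of the pathway. Each bar is a role, the x axis is the number of genes, and colours split them into a peak in the gene or within 10 kb, a peak at 10 to 100 kb only, and none within 100 kb. None of the 5 ligand genes had a peak within 10 kb and 2 had one within 100 kb. Of 15 target or survival genes, 4 had a peak within 10 kb.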

How the data were processed

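Gata1 ChIP-seq peaks of 1 library were analysed. The deposited list gives a start and an end on mm10 for 4135 peaks in 3 columns, with no score, p-value, fold or count, and each interval is 400 bp wide. Per the submitters' processing notes, Bowtie2 2.0.6 and MACS2 2.0.10 were used; the sources used here give no settings, threshold or use of the control. Per the labels' protocols, cells were fixed with 1% formaldehyde, 7 µg of antibody was used, and fragments of 150 to 400 bp were selected.

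Gene bodies were taken from RefSeq GRCm38.p6, nuclear chromosomes only, leaving out 340 entries placed below 3 Mb on autosomes or X. Strand and starts came from a RefSeq promoter table, which had 16 entries for the 10 members. For Socs3, Sh2b3, Stat5a, Stat5b and Bcl2l1 every listed start lies inside the gene body, so the sequence at the 5′ end was not searched. The nearest protein-coding gene was chosen by gene body. Positions are 1-based. Python 3.11.15, numpy 2.4.6, scipy 1.17.1, pandas 2.3.3 and matplotlib 3.10.9 were used, and window and motif counting was checked on simulated data. Motifs were searched on both strands. The planned search of whole peaks was replaced by promoters, because no genome sequence was used. Members, lists, motifs and the promoter length were chosen with earlier results of these data known. Named were all members, genes at or nearest to their peaks, and up to 12 other pathway genes by number of peaks within 10 kb and then by symbol. Other pathway genes, among them Epo, Kitl, Pdgfra and those without a peak, were named after their values were seen. The window size, any overlap, the nearest gene only, peaks within 1 kb counted once, distance to a start, and leaving out Pim1 were tried as alternatives.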

Additional observations from a re-analysis of the deposited data

How the results depend on the processing

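The count of members with a peak depended on the window. It was 9 with 100 kb, 7 with 50 kb and 10 with 200 kb. It moved to 4 with 10 kb and also to 4 when a peak was given only to its nearest protein-coding gene within 100 kb. The distinct peaks, 19 with 100 kb, moved to 6 with 10 kb, 12 with 50 kb, 32 with 200 kb and 8 with the nearest gene only. The median per member, 2 with 100 kb, moved to 0 with 10 kb and 1 with 50 kb. The other pathway genes with a peak, 16 with 10 kb, moved to 10 with gene bodies alone, 39 with 50 kb and 52 with 100 kb. A wider window holds more peaks by construction. Any overlap in place of the midpoint gave 9 members and 19 peaks. Counting peaks within 1 kb once could not change a member count, since the closest pair in the member windows, at Epor, was 1009 bp apart. The other pathway genes were not counted in this way. Among them, neighbouring peaks of the 3 at Bad lay closer than 1 kb, so that count would fall. Chosen after seeing the data were a distance of 100 kb to a listed start (8 members, 17 peaks), leaving out Pim1 (15 peaks) and adding AGATAG and TGATAG to the GATA motif (2 member promoters, as before). Of 40 counts for single members under other windows or with close peaks counted once, 16 moved by over 1.5 times. A stricter peak threshold and the search of whole peaks for motifs were not run. No paired analysis was possible because there is 1 ChIP library. The files give no depth, and no call near a gene does not exclude weaker binding there.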
